A study of Mus musculus with 6 samples.

Results

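The sodium, calcium and HCN channel genes were described here in mouse stellate ganglia, the paired sympathetic ganglia that send most of the sympathetic nerve fibres to the heart. Members were all probe sets whose single gene symbol in the platform annotation began with Scn and a digit, with Cacna, Cacnb or Cacng, or was one of the HCN genes. The rule found 87 probe sets of 37 genes among 45037 probe sets that were not array controls. Of these 37 genes, 23 had a probe set with a mean of at least 4 on the log2 scale over all arrays and were tested, and 14 were dim in every probe set. The tested genes comprised 8 sodium channel genes, 13 calcium channel genes and 2 HCN genes. Ganglia came from male C57/Bl6 mice 8 weeks after a sham operation or transverse aortic constriction (TAC), a narrowing of the aortic arch that loads the left ventricle. Both ganglia of 1 animal went onto 1 Affymetrix array of probe sets at the 3' end of transcripts, with 3 sham and 3 TAC arrays lettered A to C. Values of single arrays are given in that letter order. Each array was taken as a separate animal, and p-values rest on the spread between these arrays, pooled in part over all tested probe sets. The labels give no age, no heart measurement and no transgene.

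Voltage-gated sodium channels carry the upstroke of the action potential through a pore-forming alpha subunit, and small beta subunits tune their gating and place them in the membrane. In calcium channels the alpha1 subunit forms the pore and sets the current type. Beta and alpha2delta subunits bring that pore to the membrane. N-type calcium channels are the main source of the calcium that releases noradrenaline from sympathetic terminals. HCN channels open on hyperpolarisation and carry a slow inward current that shapes repetitive firing.

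No tested channel gene passed an adjusted p of 0.05 with limma (0 of 23; 0.0% of all 9955 tested genes passed), and adjusted p-values of the 23 lay between 0.512 and 0.997. Differences, given throughout as TAC minus sham on the log2 scale, ran from -0.57 for Cacng4 to 0.54 for Cacng5. For 15 genes the difference was under 0.25 in size. The 95% interval lay within 1 log2 unit of 0, or 2-fold, for 22 of the 23, and the exception was Cacng4. The standard errors had a median of 0.12, and in simulated data of this design 16.4% of planted differences of 0.5 were called, so differences of that size could go uncalled with 3 arrays a group.

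At an unadjusted p under 0.05 there were 5 genes, Cacng5 with a higher mean after TAC and Cacng4, Cacna2d3, Scn3b and Cacna1e with a lower one. That is 21.7% of the 23, where the same cut took 8.76% of all tested genes. It took 4 members in the lower direction against 3.32% of all genes, and 1 in the higher direction against 5.43%. The count was 2 without sham B, where 7.03% of all genes passed, and 2 without TAC B, where 6.76% did. It was 3 without TAC A (10.2% of all genes) and 3 without TAC C (6.18%). Without both sham C and TAC B, the arrays brightest in fat markers within their groups, it was 2 (5.12%). A count of 2 is 8.70% of the 23, near the shares of all genes in the settings that gave it. The count was 6, or 26.1%, without sham A (8.68% of all genes), after quantile normalization (8.89%) and after centring the arrays (8.58%). With all probe sets of a gene averaged it was also 6 (9.58%), and without sham C it was 4, or 17.4% (5.91%). The excess of lower over higher genes did not hold throughout. There were 1 higher and 1 lower in each setting with a count of 2, and 3 and 3 without sham A or with all probe sets of a gene averaged. After quantile normalization or centring there were 1 higher and 5 lower, and without sham C 1 and 3. The 3 TAC arrays lay wholly below the 3 sham arrays for 6 genes, or 26.1%, where 9.09% of all tested genes did so. Among the 6 were Cacng3, separate by only 0.01, and Cacna2d2, separate by only 0.02. The TAC arrays lay wholly above for 1 gene, Cacng5, or 4.35%, where 8.78% of all genes did so. Genes with separate groups thus numbered 7, or 30.4%, beside 17.9% of all genes. They numbered 11, or 47.8%, without sham B (27.8% of all genes then) and 11 without both sham C and TAC B (37.8% of all genes). Counted over the 44 tested probe sets of these genes, 6 had an unadjusted p under 0.05, beside 9.08% of all probe sets, with 2 higher (6.03% of all) and 4 lower (3.05%). Of these 44, 4 lay wholly higher and 7 wholly lower after TAC, where 9.02% and 8.85% of all tested probe sets did. The median difference of the 23 genes was -0.022, beside 0.020 over all tested genes. After quantile normalization these medians were -0.094 and -0.015, and after centring each array on its median -0.068 and -0.026.

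**Figure D1:**
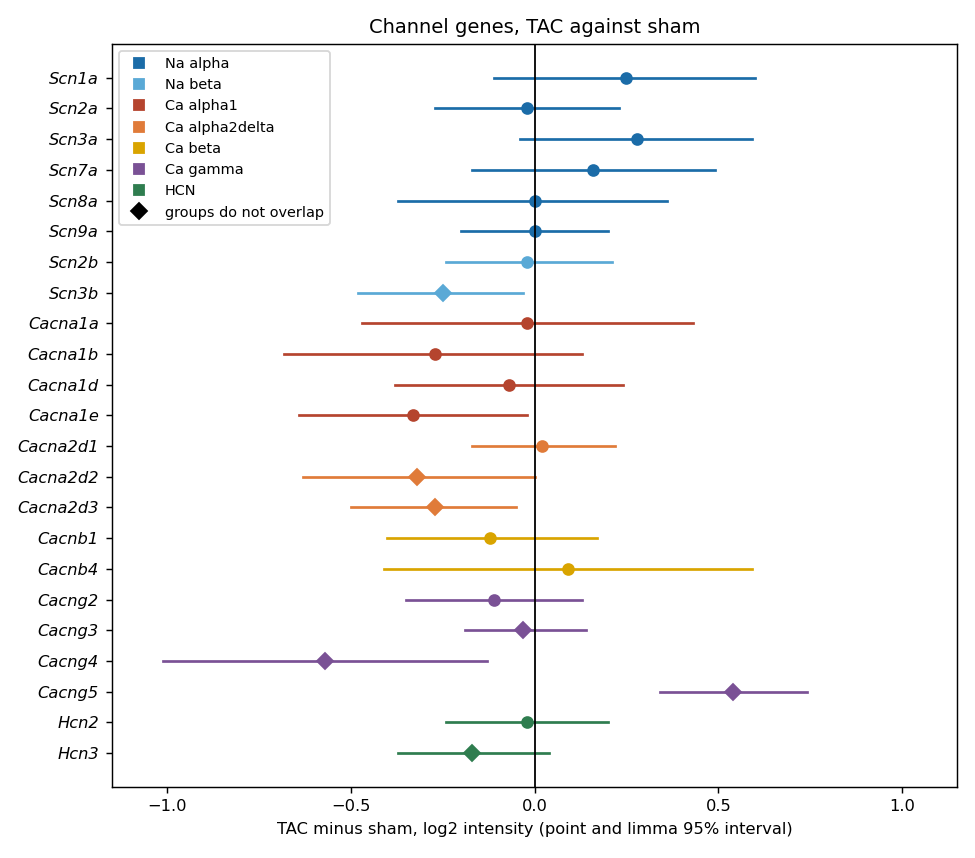
TAC minus sham difference in log2 intensity for each of the 23 tested channel genes, with limma's 95% interval, coloured by subunit class. Diamonds mark the 7 genes whose groups did not overlap; Cacng5 at 0.54 lies apart on the right and Cacng4 at -0.57 has the lowest value.

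Sympathetic neuron transcripts were bright on every array. The summed signal of 8 measured markers of 9 listed (such as tyrosine hydroxylase, Th) was 16.10 to 16.22 on the log2 scale in sham and 16.20 to 16.23 in TAC. Of the 8, Th (difference 0.24, SE 0.08) and the vesicular monoamine transporter gene Slc18a2 (0.29, SE 0.11) lay higher on every TAC array than on any sham array, with unadjusted p under 0.05, and the median difference of the 8 was 0.023. Of the sensory neuron list, 6 of 8 markers were measured and the summed signal was 12.17 to 12.25 in sham and 12.08 to 12.25 in TAC. That sum was mostly Avil, which sympathetic neurons also express, while Pou4f1, Trpv1, Tac1 and Runx1 were dim. Ntrk2 was above the floor, at 7.72 to 8.24 in sham and 7.61 to 8.16 in TAC, a difference of -0.11 (SE 0.20). Satellite glia and Schwann cell markers (6 of 8 measured) summed to 14.42 to 14.56 in sham, and to 14.43, 13.87 and 14.30 on TAC A, B and C. Skeletal muscle markers (9 of 9 measured) ranged from 6.38 to 10.45 over the sham arrays and from 6.68 to 8.06 over the TAC arrays. Fat markers (5 of 6 measured) were at 8.83 to 10.90 in sham and 8.48 to 9.87 in TAC, highest on sham C and TAC B. For heart muscle (5 of 5) the ranges were 5.49 to 5.65 and 5.50 to 5.53, and for mural cells (7 of 7) 10.70 to 10.84 and 10.81 to 11.34. For endothelium (5 of 5) they were 5.50 to 5.65 and 5.66 to 6.15. Of the endothelium markers only Emcn was above the floor, with overlapping groups and a difference of 0.53 (SE 0.25). Pecam1, Cdh5, Kdr and Tek were dim. For macrophages (4 of 4) the ranges were 8.83 to 9.17 and 8.71 to 9.05. For adrenal chromaffin cells (3 of 3) they were 12.56 to 12.62 and 12.85 to 13.04. The chromaffin sum was mostly Chgb, which differed by 0.46 (SE 0.09), while the much dimmer Pnmt differed by 0.02 (SE 0.09). The part of these cell types in the channel values was not tested, and in such whole ganglia fewer cells of a type and less RNA per cell cannot be told apart.

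**Figure D2:**
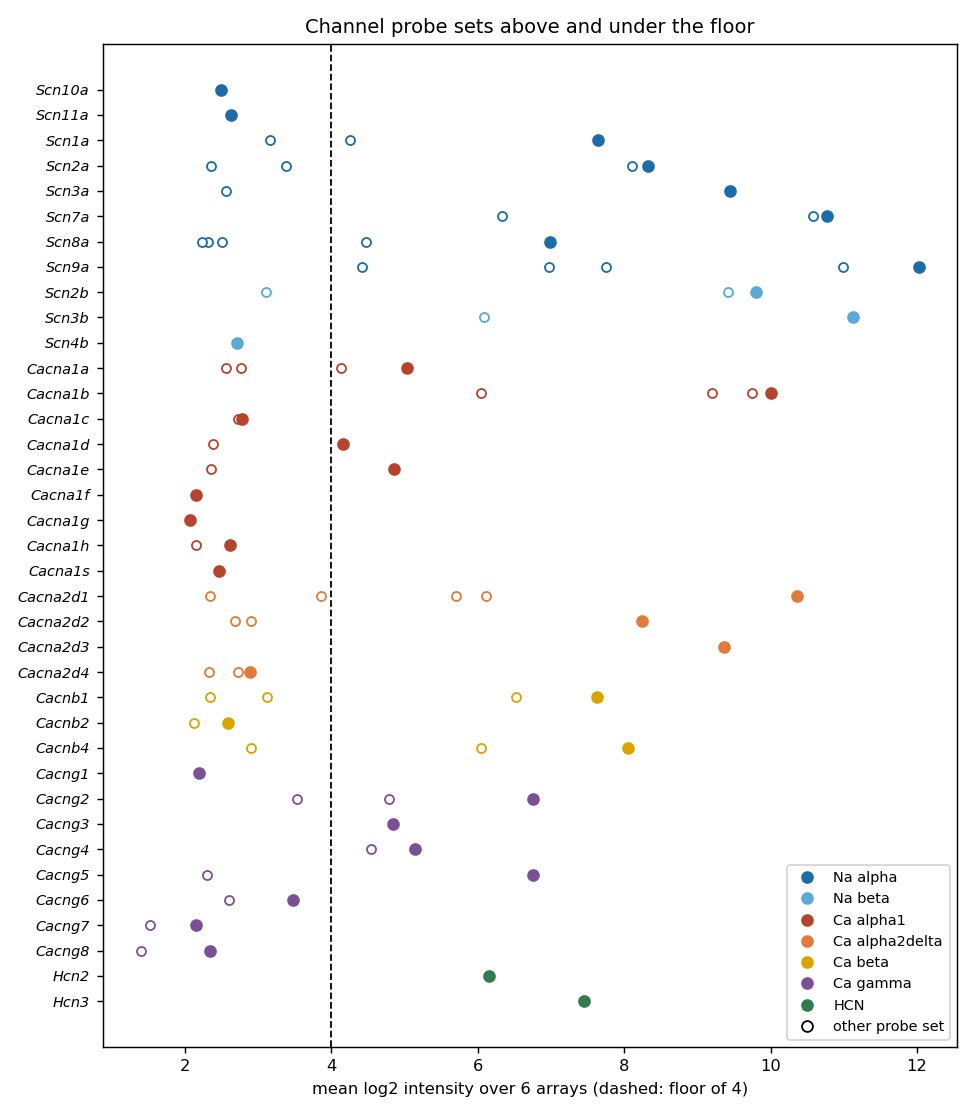
Mean log2 intensity over the 6 arrays of all 87 channel probe sets, with the probe set of highest mean filled for each gene and the floor of 4 dashed. Positions of different probe sets do not rank the genes, since each probe set binds with its own strength; 43 probe sets of 28 genes lie left of the floor.

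Cacng5 stood furthest from the other members. It encodes gamma-5, a protein of the calcium channel gamma family that is best known as an auxiliary subunit of AMPA-type glutamate receptors. It measured 6.45, 6.47 and 6.55 in the sham group and 7.13, 6.93 and 7.04 in the TAC group. The groups were separated by 0.38, more than the range of 0.10 within sham or 0.20 within TAC. The means were 6.49 ± 0.05 in sham and 7.03 ± 0.10 in TAC (SD, n = 3), a ratio of 1.45 with a 95% interval of 1.26 to 1.68. Over all probe sets the limma adjusted p was 0.512, and by unadjusted p Cacng5 stood 9th of the 9955 tested genes. Its unadjusted p stayed under 0.05 in 16 of 16 alternatives, with differences of 0.47 to 0.62. A second Cacng5 probe set was dim, at 2.30 to 2.33 in sham and 2.28 in TAC, and so does not bear on it.

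RefSeq gives 2 transcription starts for Cacng5 on chromosome 11 of assembly GRCm38.p6, both read from the minus strand. The 250 bases before each start are shown because Cacng5 had the largest positive difference among the channel genes, 5' to 3', with capitals marking each GC box (GGGCGG or its complement CCGCCC). The first window lies at chr11:107915056-107915305 and the second at chr11:107911363-107911612.
Cacng5 upstream start: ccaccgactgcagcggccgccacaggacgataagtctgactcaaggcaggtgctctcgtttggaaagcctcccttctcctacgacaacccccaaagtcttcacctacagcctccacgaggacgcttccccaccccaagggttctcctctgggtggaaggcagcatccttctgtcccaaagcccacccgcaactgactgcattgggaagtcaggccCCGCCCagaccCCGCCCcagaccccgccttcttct
Cacng5 downstream start: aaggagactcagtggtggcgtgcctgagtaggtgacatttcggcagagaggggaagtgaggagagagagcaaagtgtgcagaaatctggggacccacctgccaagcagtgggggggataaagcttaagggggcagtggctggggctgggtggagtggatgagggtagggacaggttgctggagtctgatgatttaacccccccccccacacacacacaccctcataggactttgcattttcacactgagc
The upstream window held 2 GC boxes and 62.0% G and C, and the downstream window 0 GC boxes and 56.8%. Over all 32851 windows of this length, 32.7% held a GC box and the median G and C content was 52.4%. Neither window held a TATA box (TATAAA, in 12.4% of all windows) or a cyclic AMP response core (TGACG, in 17.8%), searched on both strands. The arrays do not tell from which start the measured RNA came.

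Cacng4 encodes gamma-4, another AMPA receptor partner, and had the largest negative difference. It measured 5.78, 5.10 and 5.43 in the sham group and 4.75, 4.81 and 5.05 in the TAC group. The highest TAC array and the lowest sham array were only 0.05 apart, and the sham arrays alone spanned 0.68. The difference was -0.57 (SE 0.18, 95% interval -1.01 to -0.13, limma adjusted p = 0.540). Its second probe set differed by -0.22 (SE 0.20) with overlapping groups.

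The other gamma genes differed little. Cacng2, whose protein stargazin is the founding AMPA receptor partner, measured 6.80, 6.69 and 6.96 in sham and 6.69, 6.62 and 6.80 in TAC. These groups overlapped, with a difference of -0.11 (SE 0.10, 95% interval -0.35 to 0.13). Its second probe set, at 4.77 to 5.04 in sham and 4.70 to 4.74 in TAC, did not overlap. Cacng3 measured 4.85, 4.86 and 4.87 in sham and 4.83 on each TAC array, a difference of -0.03 (SE 0.07). Such a small gap is of the size seen for dim probe sets over the whole table, whose median difference was -0.04.

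The alpha2delta subunits sit outside the membrane, and the products of Cacna2d1 and Cacna2d2 are the targets of gabapentin. Cacna2d3 measured 9.50, 9.61 and 9.42 in the sham group and 9.34, 9.13 and 9.23 in the TAC group. Every TAC array lay below every sham array, by 0.08 at the closest. The means of 9.51 ± 0.09 and 9.23 ± 0.10 (SD, n = 3) differed by -0.27 (SE 0.09, 95% interval -0.50 to -0.05, limma adjusted p = 0.542). Cacna2d2 measured 8.36, 8.51 and 8.33 in sham and 8.09, 7.85 and 8.31 in TAC. Its groups were also separate, but only by 0.02, between sham C and TAC C. The difference of -0.32 (SE 0.13, 95% interval -0.63 to 0.00) was -0.20 without TAC B. Cacna2d1 measured 10.34, 10.41 and 10.30 in sham and 10.45, 10.28 and 10.38 in TAC. Its groups overlapped throughout, with a difference of 0.02 (SE 0.08, 95% interval -0.17 to 0.22), and its 2 other tested probe sets differed by 0.02 and 0.04. Whether the difference of Cacna2d1 itself departs from those of Cacna2d2 and Cacna2d3 was not tested. Cacna2d4 was dim in all 3 of its probe sets.

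The 250 bases before the RefSeq starts of these 3 alpha2delta genes are shown side by side because 2 of them had lower values on every TAC array than on any sham array and the other did not. They lie at chr5:15934441-15934690 on the plus strand for Cacna2d1, at chr9:107399630-107399879 on the plus strand for Cacna2d2 and at chr14:29721865-29722114 on the minus strand for Cacna2d3 (GRCm38.p6). Capitals mark GC boxes and, in Cacna2d1, the cyclic AMP response core TGACG (or its complement CGTCA).
Cacna2d1: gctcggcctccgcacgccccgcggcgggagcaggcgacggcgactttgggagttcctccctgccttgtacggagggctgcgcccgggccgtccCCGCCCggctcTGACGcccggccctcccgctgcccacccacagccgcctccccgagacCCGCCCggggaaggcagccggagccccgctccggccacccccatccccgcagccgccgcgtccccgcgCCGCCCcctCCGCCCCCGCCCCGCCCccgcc
Cacna2d2: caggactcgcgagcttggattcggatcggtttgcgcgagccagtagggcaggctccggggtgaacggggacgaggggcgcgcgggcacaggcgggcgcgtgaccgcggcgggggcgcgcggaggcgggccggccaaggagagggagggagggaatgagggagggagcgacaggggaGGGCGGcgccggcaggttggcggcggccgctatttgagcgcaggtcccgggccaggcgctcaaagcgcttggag
Cacna2d3: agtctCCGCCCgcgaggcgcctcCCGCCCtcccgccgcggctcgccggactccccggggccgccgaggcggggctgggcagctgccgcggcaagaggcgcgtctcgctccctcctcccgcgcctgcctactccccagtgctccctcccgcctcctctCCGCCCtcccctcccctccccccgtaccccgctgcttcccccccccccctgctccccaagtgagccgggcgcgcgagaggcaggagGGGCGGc
These windows held 6, 1 and 4 GC boxes, and 82.4%, 74.4% and 80.0% G and C. Their 36, 34 and 30 CG dinucleotides compare with a median of 6 over all windows. A TATA box was in 0 of these 3 windows, and the TGACG core was in that of Cacna2d1 but not in the other two. Of the 23 tested channel genes 18 had an upstream window, and 10 of those 18 held a GC box in at least 1 window, 2 a TATA box and 2 a TGACG core. Some genes had several windows. Counted by window, 40.0% of the 25 held a GC box, beside 32.7% of all windows. A TATA box was in 8.0% (12.4% of all windows) and a TGACG core in 8.0% (17.8%). These are matches of letters, not shown binding sites.

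Among the pore-forming alpha1 subunits, Cacna1b of the N-type channel was bright and variable. It measured 10.10, 10.33 and 9.99 in the sham group and 10.04, 9.53 and 10.02 in the TAC group. Only TAC B lay clearly below sham, and TAC A and C were within the sham range. The difference of -0.27 (SE 0.17, 95% interval -0.68 to 0.13, limma adjusted p = 0.617) was -0.11 without TAC B. Of the 3 other Cacna1b probe sets, one differed by -0.25 and one by -0.21, each lowest on TAC B, and the TAC to sham ratio of the third was 0.999.

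Cacna1e, the pore of the R-type channel, measured 5.19, 5.02 and 4.86 in sham and 4.57, 4.90 and 4.62 in TAC. TAC B lay just above sham C, so that the groups overlapped by 0.04. The difference was -0.33 (SE 0.13, 95% interval -0.64 to -0.02, limma adjusted p = 0.546), and -0.51 without both sham C and TAC B. It was -0.21 with 16 added to each intensity before the logarithm, as its signal was low. Cacna1a of the P/Q-type channel spanned 4.71 to 5.44 in sham and 4.95 to 5.16 in TAC, a difference of -0.02 (SE 0.19). Cacna1d was the only L-type pore above the floor, at 4.15 to 4.26 in sham and 3.99 to 4.40 in TAC, a difference of -0.07 (SE 0.13). At a mean of 4.16 it was the tested gene nearest to the floor, while the brightest dim gene, Cacng6, had a mean of 3.48.

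The calcium channel beta subunits, which bind the alpha1 subunit inside the cell, showed no separation of groups. Cacnb4 measured 8.20, 7.52 and 8.30 in the sham group and 8.04, 8.09 and 8.16 in the TAC group. Sham B stood low, and the difference of 0.09 (SE 0.21, 95% interval -0.41 to 0.59) was -0.15 without it. The second Cacnb4 probe set was also lowest on sham B, at 5.64, and differed by 0.11. Cacnb1 spanned 7.62 to 7.76 in sham and 7.36 to 7.74 in TAC, a difference of -0.12 (SE 0.12), while its second tested probe set differed by 0.12.

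**Figure D3:**
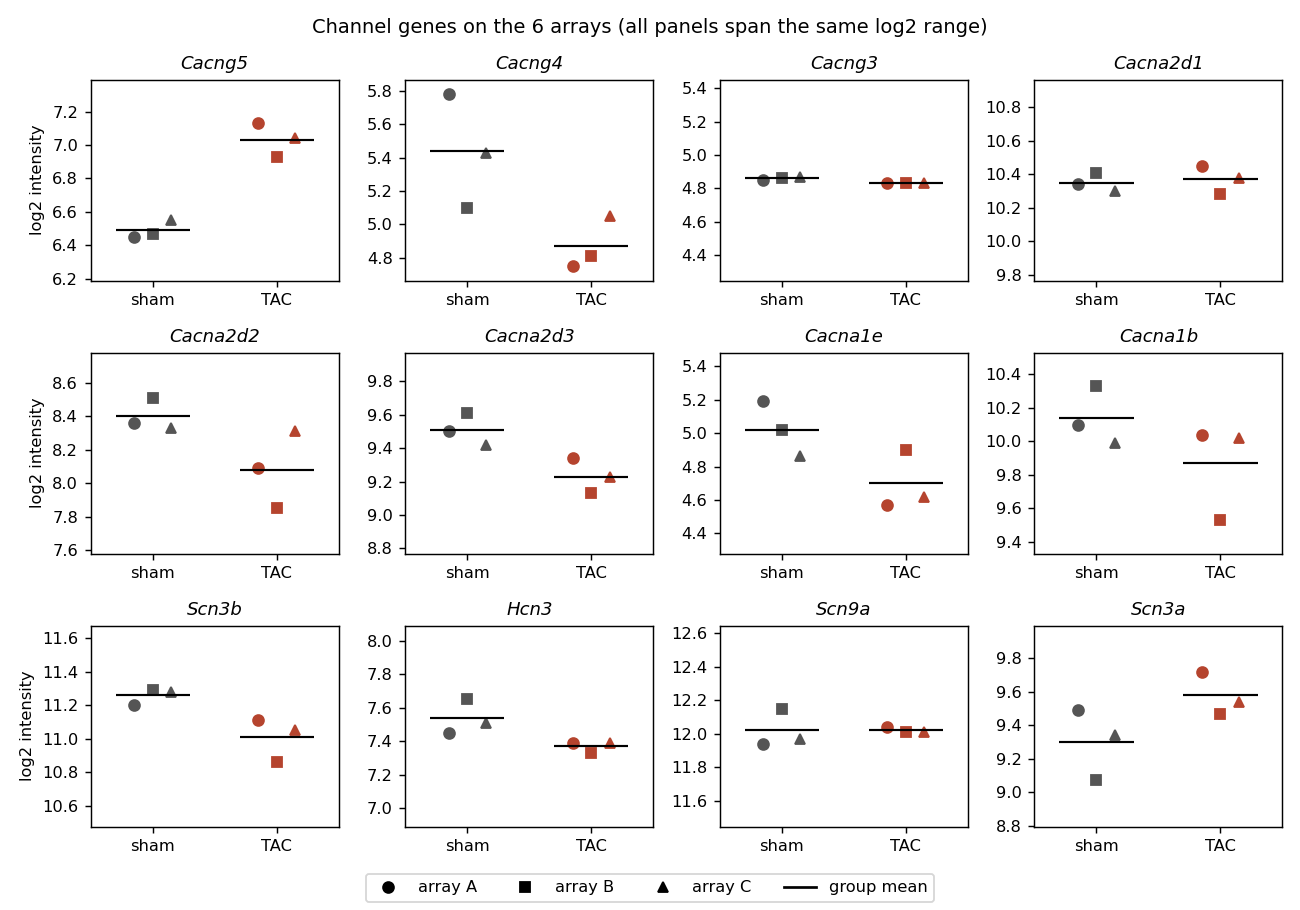
Log2 intensity of 12 channel genes on each array, with sham in grey, TAC in red, symbols for the array letters and lines for group means; all panels span the same log2 range. Cacng5 lies 0.38 or more higher on every TAC array. Cacng4, Cacng3, Cacna2d2, Cacna2d3, Scn3b and Hcn3 lie lower on every TAC array, by 0.09 or less between the closest arrays. The low Cacna1b mean after TAC rests on TAC B at 9.53.

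Sodium channel alpha subunits were measured through 6 tested genes, and 0 of them had separate groups in the probe set of highest mean. Scn9a, which encodes the sodium channel typical of peripheral sensory and sympathetic neurons, measured 11.94, 12.15 and 11.97 in the sham group and 12.04, 12.01 and 12.01 in the TAC group. The TAC arrays lay inside the sham range, with means of 12.02 in both groups and a 95% interval of -0.20 to 0.20. This probe set is of the x_at kind, which may bind related transcripts, but the next one, a unique set, also showed little difference, at 10.97 ± 0.07 and 11.00 ± 0.04 (SD, n = 3). Its dimmest tested probe set differed by 0.33 (SE 0.18) with overlapping groups.

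Scn3a, an alpha subunit abundant in developing neurons and known to reappear in injured sensory neurons, measured 9.49, 9.07 and 9.34 in sham and 9.72, 9.47 and 9.54 in TAC. TAC B lay 0.02 under sham A, and the difference was 0.28 (SE 0.13, 95% interval -0.04 to 0.59, limma adjusted p = 0.556). Without sham B it was 0.16. Scn1a measured 7.76, 7.27 and 7.52 in sham and 7.59, 7.87 and 7.82 in TAC, a difference of 0.25 (SE 0.15), or 0.12 without sham B. A dimmer Scn1a probe set, at 3.87 to 4.26 in sham and 4.28 to 4.59 in TAC, did not overlap and differed by 0.31 (SE 0.14). Scn2a, the subunit of axon initial segments, spanned 8.22 to 8.54 in sham and 8.31 to 8.35 in TAC, a difference of -0.02 (SE 0.10). Scn8a, the main subunit at nodes of Ranvier, spanned 6.68 to 7.25 in sham and 6.95 to 7.08 in TAC. Its TAC to sham ratio was 0.997, with a 95% interval of -0.37 to 0.36 on the log2 scale.

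Scn7a encodes Nax, an atypical relative that senses extracellular sodium and is known from glia and Schwann cells. It measured 10.50, 10.90 and 10.68 in sham and 11.04, 10.73 and 10.79 in TAC on its probe set of highest mean. These groups overlapped, with a difference of 0.16 (SE 0.14, 95% interval -0.17 to 0.49). It was 0.07 without sham A or without TAC A, 0.26 without sham B and 0.35 with the 3 probe sets averaged. The 2 other probe sets did not overlap. One measured 10.32 to 10.61 in sham and 10.67 to 10.74 in TAC, a difference of 0.23 (SE 0.10). The other measured 5.96, 5.99 and 6.06 in sham and 6.93, 6.89 and 6.17 in TAC, a difference of 0.66 (SE 0.21, limma adjusted p = 0.528) in which TAC C stayed near sham. All 3 Scn7a probe sets had higher TAC means. The glial markers did not move one way: Cdh19 differed by 0.31 (SE 0.14) and Sox10 by 0.07 (SE 0.13), while Fabp7, the brightest and so the main part of the summed signal, differed by -0.39 (SE 0.19). S100b, Kcnj10 and Mbp had differences of -0.25, -0.15 and -0.24. The part of glia in these values was not tested.

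The beta subunit Scn3b had separate groups on its probe set of highest mean. It measured 11.20, 11.29 and 11.28 in the sham group and 11.11, 10.86 and 11.05 in the TAC group. The closest arrays, sham A and TAC A, were 0.09 apart. The means of 11.26 ± 0.05 and 11.01 ± 0.13 (SD, n = 3) differed by -0.25 (SE 0.09, 95% interval -0.48 to -0.03, limma adjusted p = 0.542), and by -0.18 without TAC B. A second, dimmer Scn3b probe set spanned 5.75 to 6.34 in TAC, around all 3 sham values, and differed by -0.02 (SE 0.16, 95% interval -0.41 to 0.36). That interval holds the difference of the first probe set, and the 2 sets were not tested against each other. Scn2b, which attaches sodium channels to adhesion molecules, measured 9.80 to 9.82 in sham and 9.63 to 9.90 in TAC. Its difference was -0.02 (SE 0.09, 95% interval -0.24 to 0.21).

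Both measured HCN genes were above the floor. Hcn3 measured 7.45, 7.65 and 7.51 in the sham group and 7.39, 7.33 and 7.39 in the TAC group. Every TAC array lay below every sham array, by 0.05 at the closest. The difference was -0.17 (SE 0.08, 95% interval -0.37 to 0.04, limma adjusted p = 0.567), or -0.11 without sham B. Hcn2, a cyclic AMP-sensitive subunit, measured 6.22, 6.21 and 6.07 in sham and 6.03, 6.16 and 6.25 in TAC. These groups overlapped, with a difference of -0.02 (SE 0.09, 95% interval -0.24 to 0.20). Each HCN gene had 1 probe set.

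Of the 14 tested genes with more than 1 tested probe set, the differences of all tested sets had 1 sign in 9 and both signs in 5. The 5 were Cacna1a, Cacnb1, Scn2a, Scn8a and Scn9a, with differences from -0.12 for a Cacnb1 set to 0.33 for a Scn9a set. The negative sign of Scn8a rests on a TAC to sham ratio of 0.997. A Cacna1b set counted as negative had a ratio of 0.999. Over single arrays, TAC B gave the lowest value of the 6 for 9 of the 23 genes and TAC C for 0. Sham B gave the highest value for 7 genes and TAC B for 1. These counts were not made over all tested genes, so they do not show a trait particular to the channel genes. TAC B was also the array with the lowest summed glial markers, at 13.87, and its part in the lower means was not tested beyond leaving it out.

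**Figure D4:**
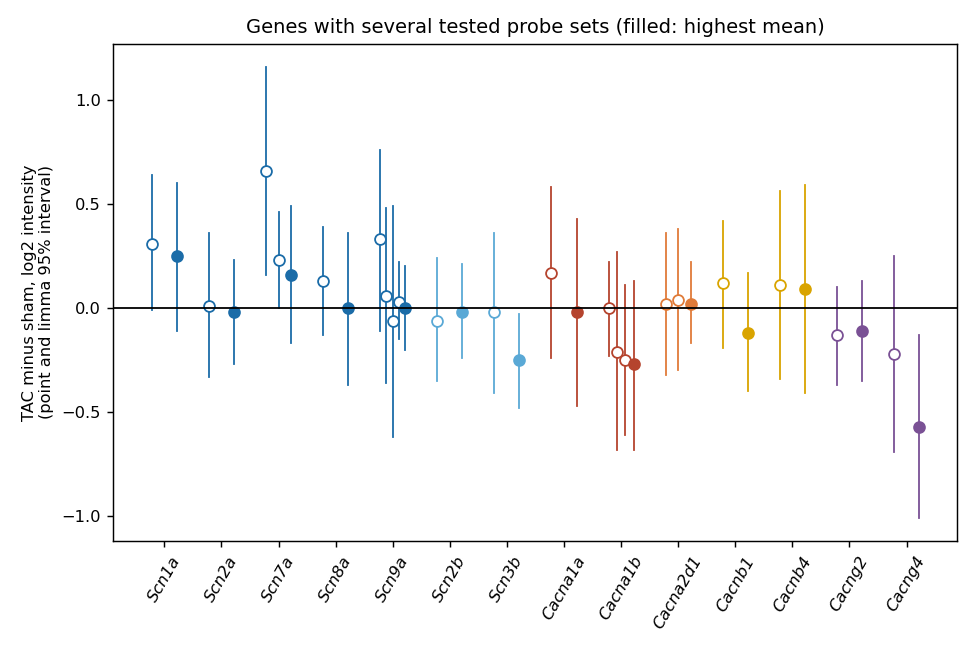
TAC minus sham difference in log2 intensity, with limma's 95% interval, for every tested probe set of the 14 channel genes that had more than 1; the set of highest mean is filled. The Cacna2d1 sets lie together near 0, while the Scn7a sets run from 0.16 to 0.66 and the Scn3b sets from -0.25 to -0.02.

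The 14 genes that were dim in every probe set had means between 2.08 and 3.48. They were the tetrodotoxin-resistant sodium channels of pain-sensing neurons (Scn10a, Scn11a), Scn4b, the L-type pores Cacna1c, Cacna1f and Cacna1s, the T-type pores Cacna1g and Cacna1h, Cacna2d4, Cacnb2, Cacng1, Cacng6, Cacng7 and Cacng8. A dim value is no evidence that a gene is silent, since the values used here come with no detection call. Cacna1s and Cacng1, subunits of the skeletal muscle calcium channel, were at 2.43 to 2.58 and 2.18 to 2.23. Myh4, a muscle myosin, spanned 2.55 to 8.17 over the same arrays. The part of muscle in these channel values was not tested. Of the 43 dim channel probe sets, 27 lay lower on every TAC array than on any sham array, or 62.8%, with a median difference of -0.04. Over all 27487 dim probe sets that share was 71.6%, with 0.415% wholly higher, so the dim members showed the shift of the whole dim class. Their differences were therefore not read as differences of these genes.

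Genes of proteins that anchor or regulate these channels were taken from a list of 50, of which 44 were measured and 32 tested. None passed over all probe sets with limma, and 3 had an unadjusted p under 0.05 (9.38%, beside 8.76% of all genes). Their median difference was 0.026. Ank2, the ankyrin that ties ion channels and transporters to the membrane skeleton, measured 11.07, 10.92 and 11.02 in sham and 11.39, 11.47 and 11.54 in TAC. Its groups were 0.32 apart, and the difference was 0.46 (SE 0.08, limma adjusted p = 0.512). Snap25, a SNARE protein that binds N-type channels at release sites, differed by 0.23 (SE 0.08), with TAC at 14.11 to 14.32 above sham at 13.94 to 14.01. Ppp3ca, a catalytic subunit of the calcium-dependent phosphatase calcineurin, differed by -0.25 (SE 0.09), with TAC at 9.01 to 9.23 below sham at 9.29 to 9.40. Counts at this unadjusted p were 1 of 15 tested sodium channel partners, 2 of 14 calcium channel partners and 0 of 4 HCN channel partners.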

How the data were processed

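Labelled RNA from both stellate ganglia of each of 6 animals was hybridised to 1 array per animal. The deposited values are linear probe set intensity values. Per the submitters' processing notes, the authors used GCRMA, whose version and options are not given in those notes. They were log2-transformed here without further normalization. A floor at a mean log2 of 4 stood in for detection calls and was met by 17550 probe sets. Near background, GCRMA can shrink differences, so those of dim genes may be understated, which was not tested here.

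TAC and sham were compared with limma 3.58.1 (R 4.3.3; lmFit and eBayes, two-sided, Benjamini-Hochberg adjustment over all tested probe sets, threshold 0.05). Standard errors, 95% intervals and p-values are limma's, whose eBayes step draws each variance toward a value common to all tested probe sets. With 3 arrays a group, their number limits the precision. Symbols came from GEO's platform annotation, and all 87 member probe sets matched RefSeq (GRCm38.p6) by gene identifier. The probe set of highest mean stood for a gene. Every member gene is named by role; values on every array are given for genes with separate groups or an unadjusted p under 0.05 and for the brightest of each role, and for others where they show the spread. Members, lists and tests were chosen with earlier results of these data known.

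The procedure was tested on simulated data drawn from the 17550 probe sets (10 simulations of TAC against sham, 200 planted changes each). It called 16.4% of planted changes of 0.5 on the log2 scale, 85.7% of those of 1 and 98.2% of those of 2, with 7.8 false calls per simulation. Noise was drawn independently for each probe set, and the large planted changes ease the adjusted threshold for the small ones. In the arrays themselves no probe set passed that threshold, so these rates may overstate recovery there. Upstream sequences are RefSeq's. Figures were drawn with matplotlib 3.10.9. Alternatives changed the floor, pseudocount, normalization, variance model, array weights, probe set rule, replicate block and arrays.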

Additional observations from a re-analysis of the deposited data

How the results depend on the processing

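No channel gene passed an adjusted p of 0.05 under any of the 16 alternatives, and 14 of 23 genes kept the sign of their difference. Among these 14, Cacnb1 and Cacng2 ran up to 4.6e-05 and 0.0001, values of 0.00 when rounded that were not counted as a change of sign. Scn8a and Scn9a, with differences of 0.00, had no sign to keep and ran from -0.16 to 0.12 and from -0.04 to 0.07. Genes at an unadjusted p under 0.05 numbered 5 as reported, 2 to 6 with 1 array left out, and 2 without sham C and TAC B, an alternative chosen after the data were seen. With the title letter as a replicate block the count was 3, with 2 higher and 1 lower. The letters share no stated source and same-letter arrays did not deviate together (correlations 0.0841, -0.00308 and -0.166), so the block was not taken as a pairing. Genes with separate groups numbered 7 as reported, 17 of 37 (45.9%) with no floor, where 42.3% of all genes were separate as dim genes enter, and, with fewer arrays to separate, 8 to 11 with 1 array left out (25.3% to 31.9% of all genes) and 11 with sham C and TAC B both left out; otherwise the cause was not tested. The median difference of channel genes was -0.094 after quantile normalization, -0.068 after centring and -0.078 to -0.008 with 1 array left out.

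Signs changed for 7 other genes, whose differences were small. With array weights the differences were 0.03 for Hcn2, 0.04 for Cacna1d, -0.01 for Cacnb4 and 0.03 for Scn2b. Cacna2d1 was at -0.02 after centring, Cacna1a at 0.08 when its probe sets were averaged, and Scn2b at 0.07 without sham C and TAC B. With 1 array left out the ranges were -0.19 to 0.18 for Cacna1a, -0.08 to 0.08 for Scn2a, -0.15 to 0.24 for Cacnb4, -0.07 to 0.04 for Hcn2, -0.02 to 0.06 for Cacna2d1 and -0.07 to 0.06 for Scn2b. Cacna1d, Cacna1e, Cacna1a, Cacng3 and Cacng4 lay under the floor of 6 and have no value there.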
